A study of Mus musculus with 18 samples.

Results

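The 45 genes described here encode factors of blood clotting, of clot dissolution and of complement, and were chosen by their gene symbols. All 45 were found in both deposited count tables, of 22137 and of 24778 genes. They were followed in 18 RNA libraries of liver tumours of MC38, a mouse colon carcinoma line that was placed in the spleen and collected as liver metastases. The first table held tumours of wild-type mice fed low-fat (LFD, n = 5) or high-fat diet (HFD, n = 5). The second held tumours of wild-type mice on the high-fat diet with a control hairpin (shCon, n = 4) or a hairpin against Yap (shYap, n = 4). The labels name no promoter, clone, age or sex, and do not say whether replicates were separate animals. The p-values therefore measure the spread between these samples, which may in part be technical. The tables were normalised separately, and groups were compared within a table only.

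Most clotting and complement proteins of plasma are made by hepatocytes and secreted into blood as inactive precursors. In the clotting cascade, serine proteases activate each other in sequence until thrombin turns fibrinogen into fibrin, and plasmin later digests the clot. Complement starts from antibody-bound C1, from lectins on foreign sugars or from spontaneous C3 turnover, and the routes meet at C3 and end in the membrane attack complex. Some members are known to be made outside hepatocytes: urokinase, its receptor and tissue plasminogen activator in stromal, endothelial, tumour and myeloid cells, the factor XIII A chain and properdin in myeloid cells, C1r and C1s in fibroblasts too, and factor D in fat.

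Library totals ran from 17766207 to 18474191 estimated counts in the first table and from 17207214 to 21309950 in the second. Levels are given as CPM, counts relative to the library total scaled by TMM normalisation factors. Alb, which encodes albumin, the main secreted product of hepatocytes, stood at 26028, 5492, 10568, 7829 and 51494 CPM in LFD replicates 1 to 5 and at 1445, 1889, 168, 187 and 329.7 CPM in HFD replicates 1 to 5. All HFD libraries thus lay below all LFD libraries (-4.66 ± 0.99 SE, adjusted p = 0.00509). In shCon it stood at 4304, 11118, 10124 and 19468 CPM and in shYap at 11512, 22334, 8278 and 36887 CPM, and these groups overlapped (0.81 ± 0.55 SE, adjusted p = 0.668). Of the 17 hepatocyte markers, 16 were lower in HFD, against 21.6% of all genes. Their summed levels were 12480 to 105500 CPM in LFD and 978 to 6601 CPM in HFD. In bulk tissue, fewer hepatocytes and less of their RNA per cell cannot be told apart. Xist, made in female cells from the silenced X chromosome, ran from 72.9 to 135 CPM in LFD and from 0.0505 to 0.293 CPM in HFD, and 4 Y-linked genes were lower in HFD as well (-1.53 for Ddx3y to -1.15 for Uty). Diet and the source of this RNA cannot be told apart. Yap1, the gene named by the hairpin label, measured 78.1, 82.4, 73.8 and 77.4 CPM under the shCon label and 71.6, 80.03, 81.4 and 70.5 CPM under the shYap label. The groups overlapped and its difference did not pass (-0.04 ± 0.11 SE, adjusted p = 0.937), so the second comparison is between labels.

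Each member was described by its slope on Alb within groups, that is, the change of its log2 level per unit of log2 Alb among libraries of the same group. A slope of 1 means that the gene and Alb changed by the same factor, and a slope of 0 that the gene did not follow Alb. The slope came from edgeR's quasi-likelihood fit with the group and log2 Alb as terms, with Benjamini-Hochberg adjusted p under 0.05 over all genes as the threshold. In the first table, 34 of 44 tested members rose with Alb, against 6.82% of all genes tested. In the second, 27 of 45 did, against 3.14% of all genes. All 27 were among the 34, and the other 7 (Klkb1, Proc, Mbl1, Mbl2, Cfb, C8a and C8g) had slopes of 0.83 to 1.03 in the second table without passing there. Fitted within the LFD libraries alone, 36 members rose with Alb, against 19.1% of all genes, and 3 fell (Thbd, Plat and Cfp), against 13.6%. The 36 were the 34 with Masp1 and C2. Within the HFD libraries alone, 31 rose, against 4.72% of all genes, and 1 fell (C1ra), against 0.624%. There Fga, Fgb, Fgg and C8g did not pass (adjusted p = 0.109, 0.0849, 0.142 and 0.218), while Cfp did. With shCon replicate 1 or 4 left out, the count of the second table was 0, but the share of all genes was not counted for these fits. The count was 0 within the shYap libraries alone, against 0.0% of all genes, and 34 within the shCon libraries alone, against 4.83%.

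With both groups in the fit, the 10 tested members whose slope passed in neither table were F13a1, Thbd, Plat, Plau, Plaur, C1ra, C1s1, Masp1, C2 and Cfp. Their slopes lay between -0.29 and 0.287 in the first table. The lowest slope that passed there was 0.293, of Pros1, beside 0.287 for Masp1, so these neighbours do not differ beyond their errors. Apart from Pros1, the passing slopes began at 0.55 (C4b).

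**Figure D1:**
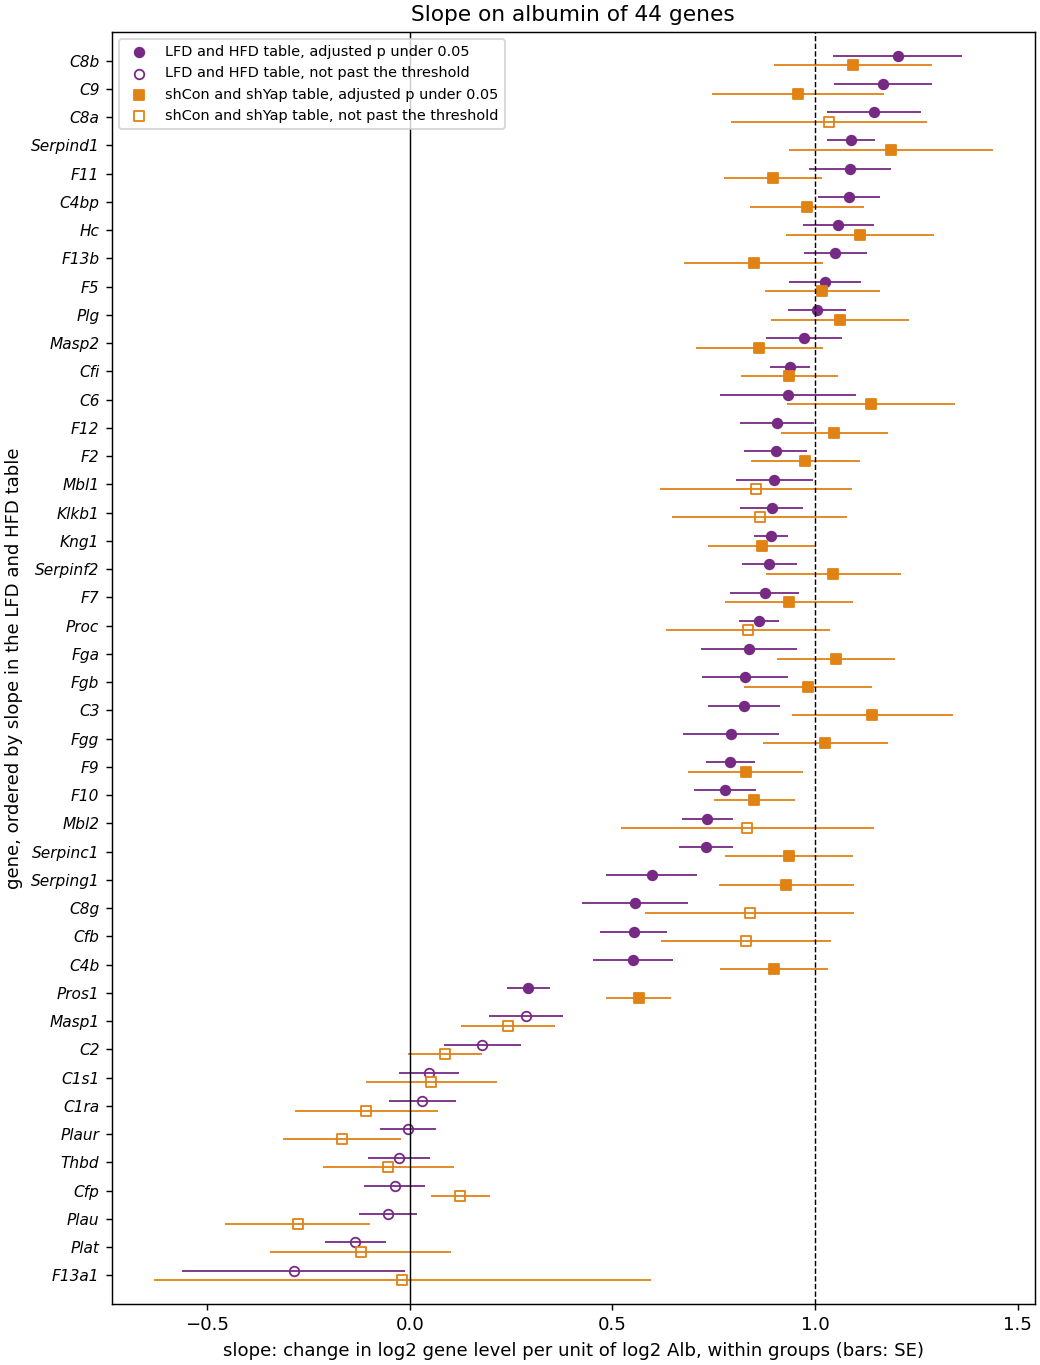
Slope of each of 44 tested genes on albumin within groups, with SE bars, for the LFD and HFD table (circles) and the shCon and shYap table (squares). Filled symbols passed an adjusted p of 0.05: 34 in the first table and 27 in the second, while the 10 genes at the bottom passed in neither.

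In HFD against LFD, 35 of 44 tested members were lower, against 21.6% of all genes, and 1, Plaur, was higher, against 19.4%. All libraries of the groups lay apart for 28 lower members (14.8% of all genes) and for Plaur (15.8% of all genes for this direction). The median log2 fold change of the members was -3.88, and that of all genes tested was -0.00176. Of the 34 members that rose with Alb in this table, 33 were lower in HFD (median -4.17). Among the other 10, 2 were lower, C1s1 and C2, and the median was -0.02. Cfd, which encodes factor D, did not pass the filter on low counts in this table. With the counts of HFD replicates 1 and 2, and of replicates 3 and 4, summed to 1 library each, 27 members were lower, against 12.9% of all genes. DESeq2 called 36 members lower and 2 higher, against 44.6% of all genes in either direction, and limma voom 33 lower and 2 higher, against 39.1%. At an unadjusted p under 0.05 in edgeR, 38 of 44 members differed, against 50.0% of all genes.

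**Figure D2:**
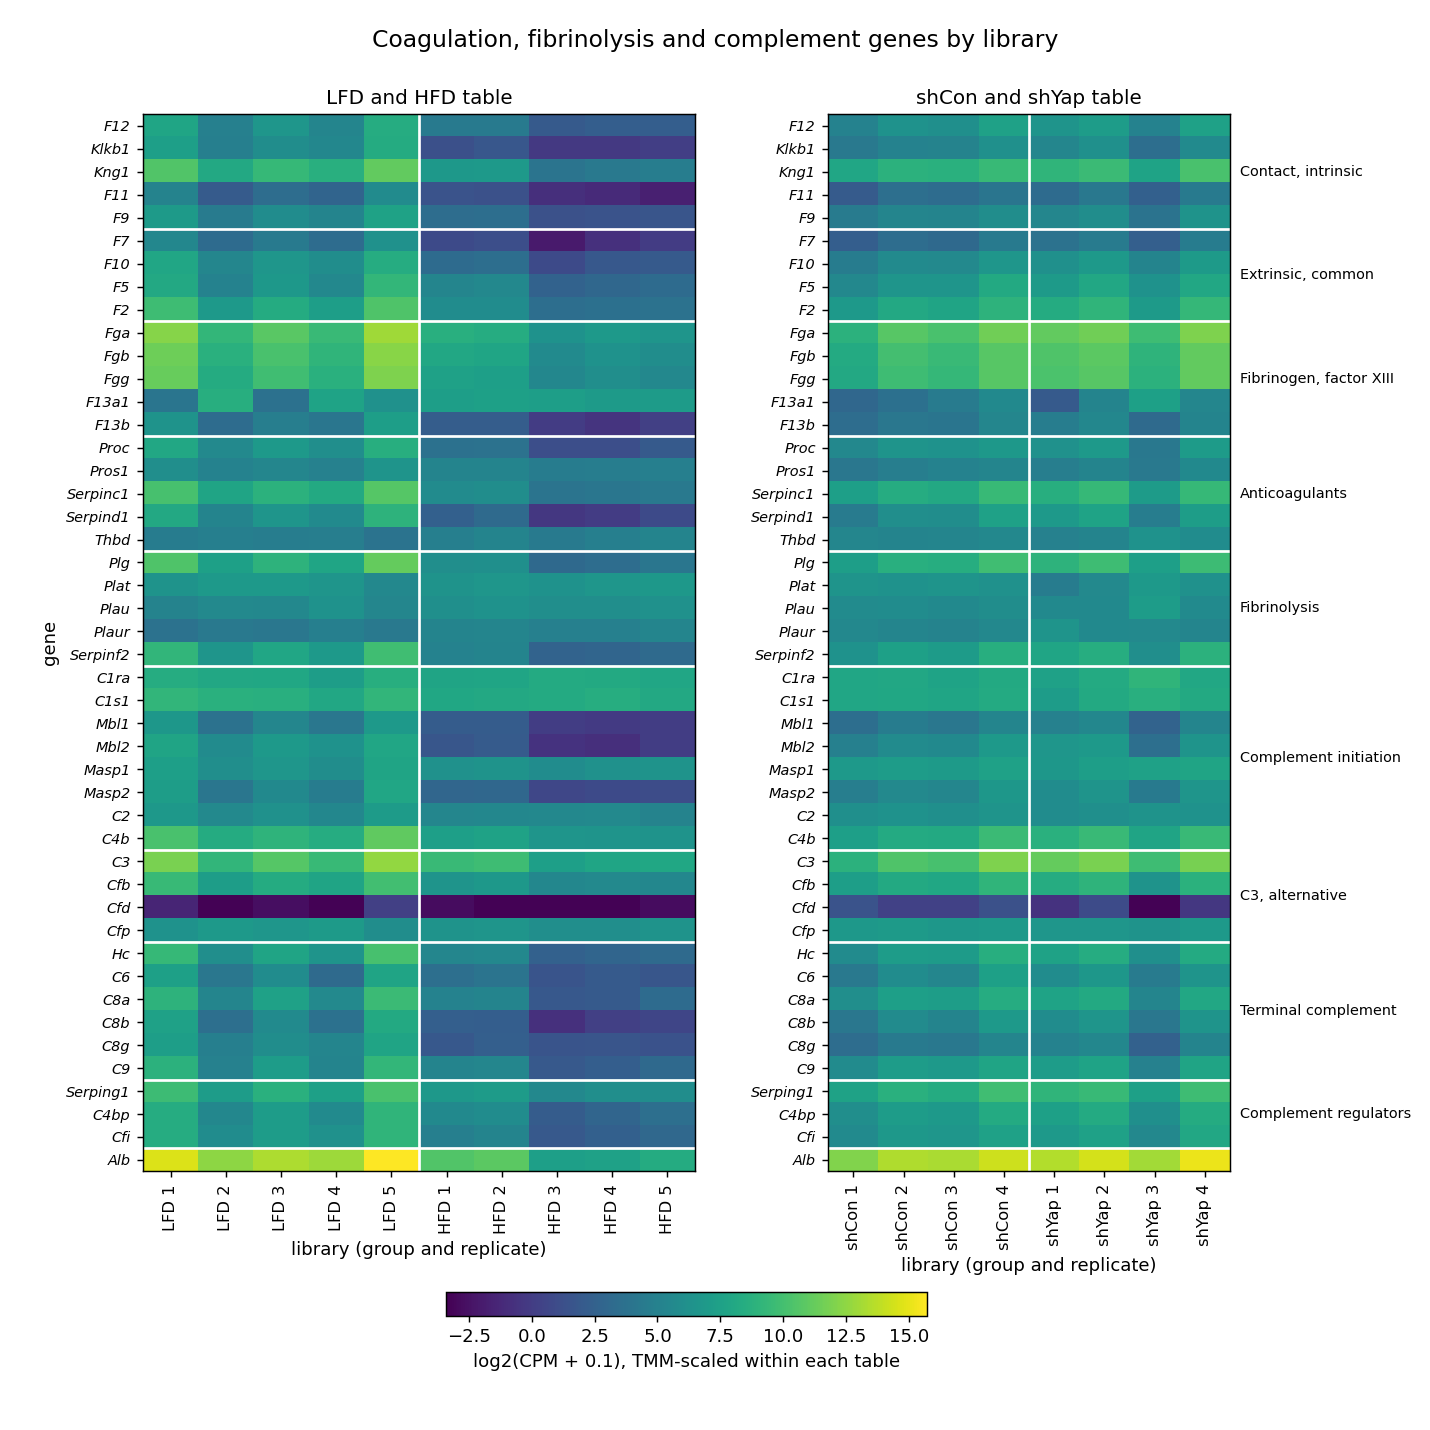
Level of the 45 genes and Alb in each library, as log2(CPM + 0.1), by role (rows) and library (columns), each table scaled on its own. Most rows are darker in HFD than in LFD, while Thbd, Plat, Plau, Plaur, C1ra, C1s1, Masp1 and Cfp differ less in shade, and F13a1 varies among the LFD libraries.

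Promoters were looked at because so many members moved with Alb, and matches were sought for letters known from liver promoters. The RefSeq promoter table (GRCm38.p6) held 33 of the 45 members, 27 of them rising with Alb in the first table. In the 250 bases before the start, on either strand, the core letters of hepatocyte nuclear factor 1, GTTAAT, occurred in 9 of 33 members: 7 of the 27 and 2 of the other 6. They occurred in 6.5% of all 27025 promoters. The C/EBP letters TTGCNNAA occurred in 9 of 33, also 7 of 27 and 2 of 6, and in 9.6% of all promoters. The letters CAAAGTCCA of hepatocyte nuclear factor 4 occurred in 0 of 33 (0.4% of all), the TEAD letters GGAATG in 6 of 33 (12.6%) and TATAAA in 2 of 33 (13%). The 4 promoters below are the 150 bases before each start, 5′ to 3′ on the strand of the gene. Fgb and C3 had slopes on Alb that passed in the first table (0.83 and 0.82), in the middle of the slope order. C1s1 and Plaur had slopes near 0. Capitals mark matches to the HNF1 and C/EBP letters on either strand.
Fgb (chr3:83049864-83050013, minus strand): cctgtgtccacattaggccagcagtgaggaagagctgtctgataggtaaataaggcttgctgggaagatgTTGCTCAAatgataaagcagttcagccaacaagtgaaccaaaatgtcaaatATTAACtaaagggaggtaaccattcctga
C3 (chr17:57228137-57228286, minus strand): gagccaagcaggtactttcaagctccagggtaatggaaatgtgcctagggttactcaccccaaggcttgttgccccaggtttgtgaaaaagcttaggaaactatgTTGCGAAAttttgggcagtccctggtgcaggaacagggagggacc
C1s1 (chr6:124542360-124542509, minus strand): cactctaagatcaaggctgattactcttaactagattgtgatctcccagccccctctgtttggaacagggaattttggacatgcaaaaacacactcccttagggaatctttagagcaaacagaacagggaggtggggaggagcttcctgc
Plaur (chr7:24462333-24462482, plus strand): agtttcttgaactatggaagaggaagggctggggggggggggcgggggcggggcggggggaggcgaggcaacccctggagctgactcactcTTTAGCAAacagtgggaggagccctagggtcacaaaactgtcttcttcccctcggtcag
Fgb held both kinds of match, C3 and Plaur held the C/EBP letters, and the C1s1 stretch held neither. C1s1 did hold the C/EBP letters further out, at -242 to -235 from its start. That match lay outside the 150 bases shown but within the 250 searched, and it is in the count above. A member on either side of the slope threshold could thus hold the same letters, and a match is a description of the sequence only.

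The contact and intrinsic factors were lower in HFD in 5 of 5, with no overlap of the groups in any of them. They are factor XII (F12) and plasma prekallikrein (Klkb1), which activate each other on charged surfaces, high molecular weight kininogen (Kng1), their cofactor and the source of bradykinin, and factors XI and IX (F11, F9), the next proteases of the cascade. F11 (chr8:45241174-45262031), the member of this role with the steepest slope, stood at 35.8, 4.15, 10.8, 6.60 and 55.5 CPM in LFD and at 2.69, 2.42, 0.453, 0.352 and 0.196 CPM in HFD. LFD replicates 1 and 5, the libraries richest in Alb, were highest, and HFD replicates 3 to 5 were lowest. The fall was -4.19 ± 0.97 SE, adjusted p = 0.00749, and the slope on Alb was 1.09 ± 0.10 (adjusted p = 3.67e-05). F9 (chrX:59999464-60030759), with the shallowest slope of the role (0.79 ± 0.06, adjusted p = 1.04e-05), stood at 131, 23.2, 58.7, 37.3 and 190.3 CPM in LFD and at 10.8, 11.01, 2.37, 2.67 and 2.93 CPM in HFD (-3.88 ± 0.74 SE, adjusted p = 0.00318). F9 lies on the X chromosome. Klkb1 (chr8:45266689-45294859) fell most, from 124 ± 122 CPM to 1.66 ± 1.19 CPM (SD, n = 5 each; -6.22 ± 0.86 SE, adjusted p = 0.000780). Kng1 was the most abundant member of the role at 1016 ± 839 and 58.2 ± 52.3 CPM (-4.12 ± 0.86 SE, adjusted p = 0.00467), and F12 fell as well (-3.67 ± 0.86 SE, adjusted p = 0.00816). In shCon F11 stood at 4.16, 11.7, 9.99 and 15.9 CPM and in shYap at 9.78, 18.9, 5.33 and 20.5 CPM. The order of these libraries followed Alb closely, except that shYap replicate 1 lay below shCon replicates 2 and 3, which held less Alb (0.90 ± 0.12, adjusted p = 0.0111). The reads of Klkb1 may include those of Gm45753, which overlaps it on the same strand.

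The extrinsic and common-pathway factors were lower in 4 of 4. Factor VII (F7) starts clotting with tissue factor, factor X (F10) cuts prothrombin with its cofactor factor V (F5), and prothrombin (F2) becomes thrombin. F7 and F10 are neighbours on chromosome 8 (chr8:13026034-13035809 and chr8:13037308-13056676). F10 had the shallowest slope of the role (0.78 ± 0.08, adjusted p = 6.61e-05) and stood at 241, 42.1, 98.5, 60.7 and 345 CPM in LFD and at 9.42, 11.01, 1.71, 3.47 and 3.86 CPM in HFD (-4.74 ± 0.77 SE, adjusted p = 0.00153). F5 had the steepest (1.03 ± 0.09, adjusted p = 2.21e-05) and stood at 277, 33.1, 108, 45.7 and 608 CPM in LFD and at 38.6, 44.8, 5.84, 7.75 and 9.83 CPM in HFD. For F5 the groups overlapped, since LFD replicate 2 lay below HFD replicates 1 and 2, and its fall (-3.32 ± 0.96 SE, adjusted p = 0.0204) did not pass with the HFD replicates summed (adjusted p = 0.0718). F7 was scarce in HFD, at 1.09 ± 0.847 CPM against 32.2 ± 28.5 CPM (SD, n = 5 each; -4.87 ± 0.82 SE, adjusted p = 0.00179), and F2 fell from 577 ± 556 to 31.4 ± 25.9 CPM (-4.20 ± 0.89 SE, adjusted p = 0.00514). Among shCon and shYap libraries all 4 rose with Alb, with slopes of 0.85 (F10) to 1.02 (F5).

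The 3 fibrinogen chains had the highest mean CPM of the clotting members in LFD, and each fell in HFD without overlap. Fga, Fgb and Fgg lie side by side on chromosome 3 (chr3:83026076-83033627, chr3:83040141-83049863 and chr3:83007724-83015049). Fga stood at 4723, 603, 1755, 749.6 and 7952 CPM in LFD and at 400.3, 342, 80.4, 125 and 92.95 CPM in HFD (-3.92 ± 0.87 SE, adjusted p = 0.00616). Fgb stood at 2912, 424, 1204, 537 and 5150.1 CPM in LFD and at 272, 228, 53.9, 78.8 and 61.4 CPM in HFD (-3.88 ± 0.85 SE, adjusted p = 0.00581). Both were highest in LFD replicate 5 and lowest in HFD replicate 3. Fgg had a fold change of -4.02 ± 0.84. The fibrinogen chains made up 24.14% to 37.49% of all counts of the 45 members in LFD and 9.818% to 23.13% in HFD. In shCon Fga stood at 477, 1675, 1195 and 2951 CPM and in shYap at 2205, 3006, 868 and 4177 CPM (0.70 ± 0.58 SE, adjusted p = 0.735), and its slope there was 1.05 ± 0.15 (adjusted p = 0.0117).

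The factor XIII subunits, which form the enzyme that crosslinks fibrin, differed from each other. F13b, the carrier subunit (chr1:139501702-139523752), stood at 83.5, 10.1, 27.5, 17.2 and 157 CPM in LFD and at 4.69, 4.70, 0.907, 0.604 and 1.08 CPM in HFD (-4.62 ± 0.95 SE, adjusted p = 0.00449), with a slope of 1.05 ± 0.08 (adjusted p = 7.88e-06). F13a1, the catalytic A subunit (chr13:36867178-37050244), stood at 16.00, 382, 13.4, 199.8 and 76.1 CPM in LFD and at 157, 177, 159, 129 and 138 CPM in HFD. The HFD libraries were alike, whereas LFD replicates 2 and 4 were high and replicates 1 and 3 low, so that LFD values lay on both sides of HFD (0.14 ± 0.79 SE, adjusted p = 0.903). The sign of this value turned with LFD replicate 1 or 3 left out (-0.15 and -0.14). The slope of F13a1 did not pass (-0.29 ± 0.27, adjusted p = 0.525). Mrc1, a macrophage mannose receptor singled out after its values were seen, stood at 150.2, 441, 147, 429.8 and 164 CPM in LFD and was likewise high in replicates 2 and 4. It is 1 of the 9 genes of the macrophage and monocyte list. The others are not given by library, so its pattern does not stand for the list. Of the macrophage and monocyte list 0 of 9 genes passed in HFD against LFD in edgeR, against 21.6% of all genes for lower and 19.4% for higher levels. At equal Alb 4 of 9 differed at an unadjusted p under 0.05, against 22.0% of all genes. The summed levels of these markers were 1418 to 2752 and 1662 to 2234 CPM, with no marker at 0. Their part in the F13a1 values was not tested. In shCon F13a1 stood at 7.76, 12.4, 22.9 and 50.8 CPM and in shYap at 3.95, 36.4, 178 and 41.2 CPM (1.47 ± 0.96 SE, adjusted p = 0.660). shYap replicate 3 was high and shYap replicate 1 was the lowest library of this table.

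Among the anticoagulants 3 of 5 were lower. Antithrombin (Serpinc1) and heparin cofactor II (Serpind1) inhibit thrombin, protein C (Proc) and its cofactor protein S (Pros1) inactivate factors V and VIII, and thrombomodulin (Thbd) is the endothelial receptor that turns thrombin into the activator of protein C. Serpind1 (chr16:17331371-17343575) stood at 279, 36.7, 95.03, 52.9 and 504 CPM in LFD and at 5.33, 9.14, 0.705, 0.906 and 1.76 CPM in HFD (-5.76 ± 1.05 SE, adjusted p = 0.00259). It had the steepest slope of the role (1.09 ± 0.06, adjusted p = 9.19e-07), and the groups lay far apart. Its reads may include those of Pi4ka on the opposite strand. Thbd (chr2:148404466-148408188) stood at 23.97, 28.4, 26.4, 26.97 and 14.9 CPM in LFD and at 29.2, 37.3, 21.4, 28.8 and 38.04 CPM in HFD. Its groups overlapped, and neither its difference (0.36 ± 0.20 SE, adjusted p = 0.175) nor its slope (-0.03 ± 0.08, adjusted p = 0.847) passed. Pros1 lay between them: it rose with Alb at a slope of only 0.29 ± 0.05 (adjusted p = 0.00555), stood at 51.8 ± 24.1 and 30.7 ± 6.10 CPM (SD, n = 5 each), and its difference did not pass (-0.75 ± 0.29 SE, adjusted p = 0.0589). It passed with LFD replicate 2 (-0.87, adjusted p = 0.0328) or 4 (-0.89, adjusted p = 0.0289) left out, and with all libraries in DESeq2 (-0.79, adjusted p = 0.0305). Proc and Serpinc1 fell by 4.62 and 4.45 on the log2 scale (adjusted p = 0.00235 and 0.00170). Within LFD alone Thbd fell with Alb (-0.25 ± 0.07, adjusted p = 0.0265). Thbd stood at 40.6, 36.9, 38.9 and 45.9 CPM in shCon and at 31.8, 37.8, 82.2 and 59.6 CPM in shYap, again with no slope past the threshold.

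Fibrinolysis held members of both kinds: 2 of 5 were lower, 1 was higher and 2 did not pass. Plasminogen (Plg) is the precursor of plasmin, tissue-type and urokinase-type plasminogen activators (Plat, Plau) cut it, Plaur is the urokinase receptor, and alpha-2-antiplasmin (Serpinf2) inhibits plasmin. Plg (chr17:12378608-12419385) stood at 1372, 174, 493, 230.5 and 2339 CPM in LFD and at 66.8, 69.6, 8.77, 10.7 and 16.6 CPM in HFD (-4.74 ± 0.99 SE, adjusted p = 0.00484). With both groups in the fit its slope was 1.005 ± 0.071 (adjusted p = 5.54e-06). Fitted alone, the slope of Plg was 1.20 ± 0.09 in LFD and 0.87 ± 0.03 in HFD, so the joint value describes neither group. The difference of these slopes was not tested. Serpinf2 fell by 4.38 on the log2 scale (adjusted p = 0.00379). The slopes of the activators and the receptor did not pass with both groups in the fit. Plat (chr8:22757727-22782844) stood at 83.3, 116, 117, 94.3 and 45.8 CPM in LFD and at 85.8, 99.7, 82.4, 101 and 108 CPM in HFD. Its lowest value was in LFD replicate 5, the library with the most Alb, and the groups overlapped (0.06 ± 0.22 SE, adjusted p = 0.843). The slope of Plat was the lowest of the role (-0.13 ± 0.08, adjusted p = 0.299), and within LFD alone Plat fell with Alb (-0.37 ± 0.09, adjusted p = 0.0184).

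Plaur (chr7:24462484-24475968) stood at 13.6, 19.6, 17.7, 29.1 and 19.4 CPM in LFD and at 37.03, 38.1, 30.9, 30.2 and 39.3 CPM in HFD. Each HFD library lay above each LFD library, and LFD replicate 4 came closest to HFD (0.82 ± 0.18 SE, adjusted p = 0.00565). Its slope was -0.00 ± 0.07 (adjusted p = 0.974), and at equal Alb the difference kept its size without passing (0.80 ± 0.36 SE, adjusted p = 0.230). Plau (chr14:20836660-20843385) stood at 35.2, 48.9, 45.01, 78.97 and 41.01 CPM in LFD and at 67.5, 82.4, 67.2, 67.02 and 74.8 CPM in HFD. Only LFD replicate 4 reached the HFD values. Its difference was 0.53 ± 0.19 SE, adjusted p = 0.0515, and it passed without that library (0.75, adjusted p = 0.00145), in DESeq2 (adjusted p = 0.0351), in limma voom (0.0337) and with upper-quartile factors (0.0414). Beside these, 4 of 10 fibroblast markers were higher in HFD, against 19.4% of all genes (summed levels of 2949 to 5601 and 6420 to 8529 CPM). Of 7 tested neutrophil markers 6 were lower, against 21.6% of all genes (47.35 to 102.2 and 1.36 to 9.646 CPM). Of 9 macrophage markers 0 passed, against 21.6% of all genes for lower and 19.4% for higher levels. No marker of these lists was at 0 in all libraries of a group, and their part in the Plaur and Plau values was not tested. In the second table Plaur had the smallest unadjusted p of all members (0.0889) and stood at 45.9, 38.3, 35.7 and 46.1 CPM in shCon and at 89.2, 51.1, 48.04 and 39.5 CPM in shYap. shYap replicate 1 was highest, but the groups overlapped and the difference did not pass (0.46 ± 0.24 SE, adjusted p = 0.558). Plau stood at 56.6, 59.7, 51.3 and 63.6 CPM in shCon and at 50.6, 50.1, 139 and 54.7 CPM in shYap, where replicate 3 stood apart (0.35 ± 0.33 SE, adjusted p = 0.776).

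**Figure D3:**
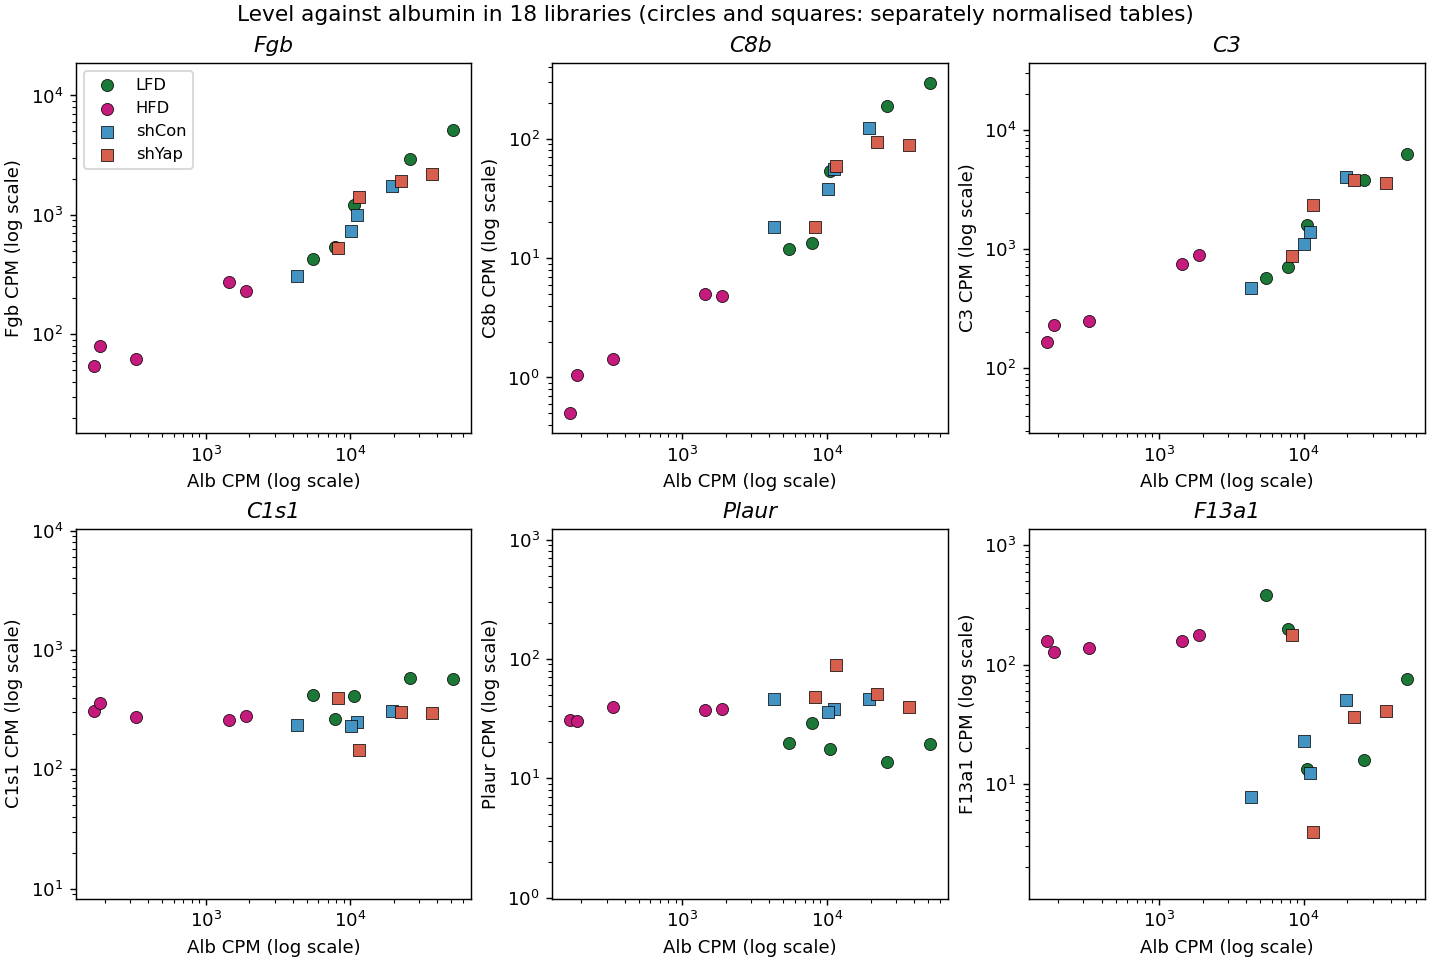
Level of 6 genes against Alb in all 18 libraries, both axes in CPM on a log scale (each panel spans the same factor), circles for LFD and HFD and squares for shCon and shYap. Fgb, C8b and C3 rise with Alb in each table, C1s1 and Plaur stay nearly level, and F13a1 varies widely among libraries of similar Alb.

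Complement initiation also held both kinds, with 6 of 8 members lower. Mannose-binding lectins (Mbl1, Mbl2) bind microbial sugars and work through the proteases Masp1 and Masp2, C1r and C1s (C1ra, C1s1) are the proteases of C1, and C2 and C4b give the C3 convertase. Masp2 (chr4:148602554-148615499) stood at 147, 16.7, 49.9, 25.1 and 239 CPM in LFD and at 7.53, 7.93, 1.46, 1.71 and 1.91 CPM in HFD (-4.54 ± 0.92 SE, adjusted p = 0.00403), with the steepest slope of the role (0.97 ± 0.09, adjusted p = 4.88e-05). Mbl2 (chr19:30232942-30239687) stood at 211, 57.5, 119, 81.8 and 235 CPM in LFD and at 3.09, 4.24, 0.554, 0.453 and 0.929 CPM in HFD. Each LFD library lay far above each HFD library, and with Klkb1 this was the largest fall of the 44 tested members (-6.24 ± 0.75 SE, adjusted p = 0.000394). Mbl1 fell as well (-4.68 ± 0.84 SE, adjusted p = 0.00236). Masp1, by contrast, stood at 123 ± 68.6 and 76.3 ± 10.6 CPM (SD, n = 5 each) and did not pass (-0.68 ± 0.34 SE, adjusted p = 0.134). C4b fell from 903 ± 774 to 125 ± 50.2 CPM (-2.85 ± 0.58 SE, adjusted p = 0.00438), and its reads cannot be told apart fully from those of the close copy C4a, which fell too (-2.83 ± 0.81 SE, adjusted p = 0.0198).

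C1ra and C1s1, neighbours on chromosome 6 (chr6:124512405-124523443 and chr6:124530345-124542359), had no slope past the threshold in either table. Within HFD alone C1ra fell with Alb (-0.13 ± 0.03, adjusted p = 0.0221). C1ra stood at 339, 264, 246, 154 and 382 CPM in LFD and at 216, 225, 311, 299.8 and 234 CPM in HFD. The groups overlapped widely, and the sign of the difference (-0.11 ± 0.22 SE, adjusted p = 0.729) turned with LFD replicate 5 left out (0.05). C1s1 stood at 589, 424, 412, 264 and 573 CPM in LFD and at 258, 279.7, 309.7, 359 and 274 CPM in HFD. LFD replicate 4 lay within the HFD range and the other 4 LFD libraries above it. C1s1 was lower in HFD (-0.61 ± 0.20 SE, adjusted p = 0.0335) with a slope of 0.05 ± 0.07 (adjusted p = 0.696), but this call was lost with any of 7 single libraries left out (LFD replicates 1, 3 and 5 and HFD replicates 1, 2, 3 and 5; -0.64 to -0.50, adjusted p of 0.053 to 0.0806) and with the HFD replicates summed (0.111). C2 (chr17:34862604-34898265) stood at 110.0, 48.8, 75.8, 42.7 and 135 CPM in LFD and at 40.9, 42.6, 46.5, 47.9 and 35.3 CPM in HFD. LFD replicate 4 lay within the HFD range and replicate 2 just above it (-0.95 ± 0.30 SE, adjusted p = 0.0282). Its call was lost with any of 6 libraries left out (LFD replicates 1 and 5 and HFD replicates 1, 2, 3 and 5; -0.98 to -0.69, adjusted p of 0.0509 to 0.0689) and, with all libraries, in limma voom (0.0561), and with the HFD replicates summed (0.101). C2 overlaps the readthrough gene Gm20547 on the same strand, as does Cfb, and C1ra and C1s1 have the close copies C1rb and C1s2, so their counts are uncertain to that degree. For comparison, C1s1 stood at 238, 251, 231 and 309.9 CPM in shCon and at 146, 301, 399.7 and 297 CPM in shYap, and C2 at 69.8, 80.9, 70.9 and 89.5 and 58.6, 68.5, 85.9 and 82.8 CPM. Both groups overlapped for both genes.

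C3, the protein on which all complement routes meet, had the highest mean CPM of the complement members in LFD and in HFD. It stood at 3806, 572, 1589.8, 708 and 6288 CPM in LFD and at 744, 882, 165, 232 and 251 CPM in HFD (chr17:57203970-57228136). HFD replicates 1 and 2 lay above LFD replicates 2 and 4, so the groups overlapped although C3 was lower in HFD (-2.51 ± 0.78 SE, adjusted p = 0.0273). This call was lost with LFD replicate 1 or 5 or HFD replicate 3, 4 or 5 left out (-2.35 to -1.87, adjusted p of 0.0583 to 0.0679), and with the HFD replicates summed (0.0842). Its slope was 0.82 ± 0.09 (adjusted p = 0.000122). Cfb, factor B of the alternative pathway, fell from 467 ± 341 to 67.5 ± 31.8 CPM (SD, n = 5 each; -2.79 ± 0.56 SE, adjusted p = 0.00386) without overlap. Cfp (chrX:20925454-20931555), properdin, which stabilises the alternative convertase, stood at 82.8, 125, 99.2, 127 and 62.6 CPM in LFD and at 86.2, 94.99, 66.5, 65.2 and 83.1 CPM in HFD. The groups overlapped, and its difference (-0.33 ± 0.20 SE, adjusted p = 0.204) and slope (-0.04 ± 0.07, adjusted p = 0.778) did not pass. The slopes of the groups fitted alone passed with opposite signs: Cfp fell with Alb within LFD (-0.32 ± 0.05, adjusted p = 0.00250) and rose with it within HFD (0.13 ± 0.03, adjusted p = 0.0180), and the difference of these slopes was not tested. Without LFD replicate 5, which was its lowest LFD library, Cfp was lower in HFD (-0.43, adjusted p = 0.0419). Cfd, factor D, the protease that activates factor B and is known as adipsin for its origin in fat, was at 0.275, 0, 0.0545, 0 and 1.06 CPM in LFD and 0.0498, 0, 0, 0 and 0.0489 CPM in HFD. It stood at 2.65, 1.14, 1.16 and 2.47 CPM in shCon and at 0.558, 1.82, 0 and 0.707 CPM in shYap (-1.25 ± 0.78 SE, adjusted p = 0.632). In the first table it was thus at or near 0. Of 6 adipocyte markers 2 were listed in the first table, summing to 1.885 to 16.13 CPM in LFD and 13.4 to 20.05 CPM in HFD. In edgeR 0 of these 2 passed, against 21.6% of all genes for lower and 19.4% for higher levels. At equal Alb 1 of 2 had an unadjusted p under 0.05, against 22.0% of all genes.

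The terminal components were lower in 6 of 6, and C8b, C9 and C8a had the 3 steepest slopes of all members in the first table. C5 (Hc) is cut to give the anaphylatoxin C5a, and C6, the 3 chains of C8 (C8a, C8b, C8g) and C9 build the membrane pore. C8b (chr4:104766317-104804548) stood at 188, 12.02, 54.2, 13.4 and 293 CPM in LFD and at 5.03, 4.80, 0.504, 1.06 and 1.42 CPM in HFD (-5.45 ± 1.12 SE, adjusted p = 0.00452). With both groups in the fit its slope was 1.20 ± 0.16 (adjusted p = 0.000572), which lay above 1 by little more than its error. Fitted alone, the slope of C8b was 1.52 ± 0.21 in LFD and 0.81 ± 0.10 in HFD. For C9 these slopes were 1.44 ± 0.22 and 0.98 ± 0.04, and for C8a 1.40 ± 0.19 and 0.96 ± 0.05. The differences of these slopes were not tested. C8g (chr2:25498651-25501719) had the shallowest slope of the role (0.56 ± 0.13, adjusted p = 0.0263). It stood at 162, 28.1, 63.6, 38.8 and 215 CPM in LFD and at 3.54, 5.10, 2.92, 3.02 and 2.54 CPM in HFD (-4.88 ± 0.63 SE, adjusted p = 0.000563). Within HFD, C8g stayed between 2.54 and 5.10 CPM, while C8a ran from 3.58 to 37.9 CPM and C8b from 0.504 to 5.03 CPM. C8g overlaps Fbxw5 on the opposite strand. Hc, C8a, C6 and C9 fell by 4.32, 4.14, 3.69 and 3.74 on the log2 scale. In C6 and C9 the groups overlapped, and with the HFD replicates summed C6, C8a and C9 no longer passed (adjusted p of 0.0574, 0.0543 and 0.0711). In shCon C8b stood at 18.1, 56.1, 37.8 and 123 CPM and in shYap at 59.05, 94.4, 18.1 and 88.9 CPM (0.15 ± 0.62 SE, adjusted p = 0.959), with a slope of 1.09 ± 0.20 (adjusted p = 0.0236).

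The soluble regulators were lower in 3 of 3. C1 inhibitor (Serping1) blocks C1, MASPs and kallikrein, C4b-binding protein (C4bp) and factor I (Cfi) together destroy C4b and C3b. Serping1 (chr2:84765387-84775444), with the shallowest slope of the role (0.60 ± 0.11, adjusted p = 0.00688), stood at 841, 144, 416, 175 and 1193 CPM in LFD and at 109, 132, 46.5, 64.96 and 63.2 CPM in HFD (-2.73 ± 0.62 SE, adjusted p = 0.00694). C4bp (chr1:130634773-130661632), with the steepest (1.08 ± 0.08, adjusted p = 5.34e-06), stood at 345, 42.3, 145, 52.2 and 556 CPM in LFD and at 50.5, 59.3, 4.33, 6.84 and 11.9 CPM in HFD. HFD replicates 1 and 2 reached the level of LFD replicates 2 and 4, so the groups overlapped (-3.10 ± 0.98 SE, adjusted p = 0.0295). The call of C4bp was lost with LFD replicate 1 or 5 or HFD replicate 3, 4 or 5 left out (-2.91 to -2.45, adjusted p of 0.0547 to 0.0685), and with the HFD replicates summed (0.0797). Cfi fell from 233 ± 208 to 16.4 ± 14.9 CPM (-3.83 ± 0.88 SE, adjusted p = 0.00743) with a slope of 0.94 ± 0.05 (adjusted p = 8.04e-07).

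The order of levels, set per kilobase of exon, differed between the groups. The length used joins the exons of all annotated transcripts of a gene and can exceed that of the transcript present, as may hold for Serpinc1 (8546 bases). Ranks between genes are therefore approximate. In LFD the highest mean levels were those of Fga (1049 CPM per kb), Fgg (785), Fgb (537), C3 (504) and Kng1 (313). In HFD they were C1s1 (94.7 CPM per kb), C3 (88.4), C1ra (86.2), Fga (69.1) and Fgg (48.4). C1s1 and C1ra had been 11th and 16th in LFD. Neighbours in these orders do not differ beyond their spread: Fga, for example, was at 3156 ± 3151 CPM and Fgg at 1644 ± 1611 CPM in LFD (SD, n = 5 each). In shCon the order began with Fga (523 CPM per kb), Fgg (418), C3 (339) and Fgb (249), and in shYap with the same 4 genes in the same order (852, 678, 514 and 398). F13a1 was 37th in LFD, 11th in HFD, 44th in shCon and 40th in shYap. Cfd was last in each group.

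With log2 Alb as a term, 3 of 44 members still differed between HFD and LFD, against 4.09% of all genes. Mbl2 was lower at equal Alb (-2.94 ± 0.32 SE, adjusted p = 0.00161), as was Klkb1 (-1.76 ± 0.42 SE, adjusted p = 0.0463), and C4bp was higher (2.08 ± 0.41 SE, adjusted p = 0.0274). Mbl2 gave 8.12, 10.47, 11.3, 10.46 and 4.56 counts per 1000 Alb counts in LFD replicates 1 to 5 and 2.14, 2.25, 3.30, 2.42 and 2.82 in HFD replicates 1 to 5. All HFD values were below all LFD values on this scale. Klkb1 gave 6.35, 5.24, 5.98, 5.57 and 6.25 counts per 1000 Alb counts in LFD and 1.62, 1.82, 4.50, 4.04 and 3.11 in HFD. These ranges lay close together without overlap, HFD being lower. C4bp gave 13.3, 7.70, 13.7, 6.66 and 10.8 counts per 1000 Alb counts in LFD and 34.9, 31.4, 25.8, 36.6 and 36.04 in HFD, and all HFD values were higher. The members with the next largest rises at equal Alb did not pass, among them C9 (2.05 ± 0.68 SE, adjusted p = 0.116), F5 (1.92 ± 0.51 SE, adjusted p = 0.0650) and C3 (1.74 ± 0.53 SE, adjusted p = 0.0916). The lowest Alb level of LFD, 5492 CPM, lay above the highest of HFD, 1889 CPM. No library of either group thus stood at the Alb level of the other, and the term rests on a slope common to both groups. Fitted alone in LFD and in HFD, the slopes were 1.08 ± 0.04 and 0.61 ± 0.09 for Klkb1. For Mbl2 they were 0.64 ± 0.08 and 0.87 ± 0.09, and for C4bp 1.19 ± 0.13 and 1.01 ± 0.04. For F5 they were 1.31 ± 0.08 and 0.83 ± 0.04, and for C3 1.11 ± 0.10 and 0.65 ± 0.04. Differences of these slopes were not tested. The calls of Klkb1 and C4bp were lost, leaving 1 member, with HFD replicate 1 or 2 or LFD replicate 2 or 4 left out. In DESeq2 7 members differed (C3, C8g, C9 and F5 besides), against 11.3% of all genes, and in limma voom 3 did, against 4.96%. At an unadjusted p under 0.05 in edgeR 10 of 44 differed at equal Alb, against 22.0% of all genes. With the mean of the hepatocyte list in place of Alb 14 members differed, against 4.44% of all genes, and Klkb1 was not among them.

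**Figure D4:**
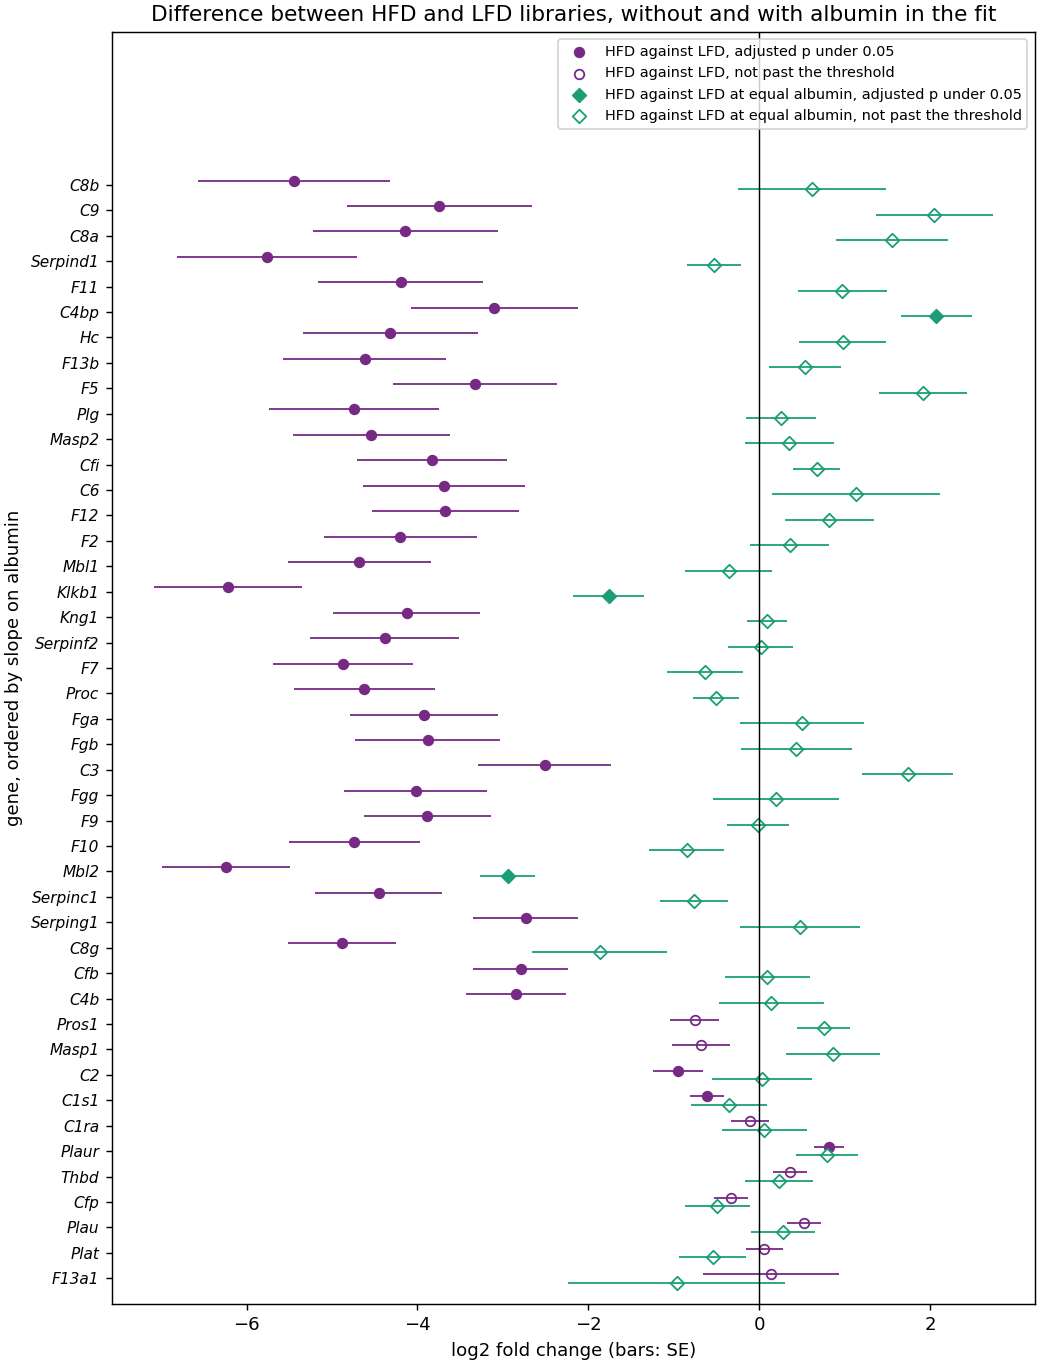
Log2 fold change of HFD against LFD for 44 genes, with SE bars, from the fit without Alb (circles) and with log2 Alb as a term (diamonds). Filled symbols passed an adjusted p of 0.05: most circles lie far below 0, and with Alb in the fit Mbl2, Klkb1 and C4bp alone are filled.

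In shYap against shCon 0 of 45 members passed in either direction in edgeR, against 0.0% of all genes, 0 in DESeq2, against 2.47%, and 0 in limma voom, against 0.0%. At an unadjusted p under 0.05, 0 of 45 members passed in edgeR, against 10.9% of all genes. The groups lay apart in 0 members, against 3.96% of all genes for lower and 2.61% for higher levels. The point estimates were positive for 40 members and negative for 5 (Plat, C2, Cfd, Cfp and C6), with a median of 0.35. The log2 fold change of Alb was 0.81 and did not pass either. With log2 Alb in the fit the median of the members was -0.26. Mbl2, as an example of the spread, stood at 30.00, 56.7, 51.5 and 114 CPM in shCon and at 98.1, 115, 11.7 and 90.03 CPM in shYap. shYap replicate 3 was lowest and the other 3 shYap libraries lay within or near the shCon range. Serpind1 stood at 23.8, 64.1, 63.5 and 185 CPM in shCon and at 113, 206, 25.5 and 151 CPM in shYap, again with overlap. C3 stood at 467, 1378, 1106 and 4032 CPM in shCon and at 2342, 3805, 879 and 3542 CPM in shYap (0.60 ± 0.65 SE, adjusted p = 0.810), and its lowest libraries, shCon replicate 1 and shYap replicate 3, were those with the least Alb. At equal Alb 0 members passed in edgeR, against 0.0% of all genes, and 0 in DESeq2, against 3.14%. In edgeR 2 of 45 had an unadjusted p under 0.05, against 13.8% of all genes. The standard errors of the members' log2 fold changes ran from 0.13 (Cfp) to 0.96 (F13a1), and differences within these errors were not detectable in these libraries. These errors are not detection limits, and larger differences could be missed as well. Plaur, at 0.46 ± 0.24 SE, did not pass in edgeR (adjusted p = 0.558).

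Other genes of these pathways, from 4 lists that share no gene with the 45, were counted by the same tests. Of 17 other coagulation genes tested, 8 were lower and 5 higher in HFD, against 21.6% and 19.4% of all genes. Tfpi, the inhibitor of tissue factor and factor VIIa, was lower (-1.50 ± 0.22 SE, adjusted p = 0.000923), F2rl1, a protease-activated receptor, was higher (2.72 ± 0.54 SE, adjusted p = 0.00377), and Proz, which encodes protein Z, was lower (-4.37 ± 0.89 SE, adjusted p = 0.00433) with a slope on Alb of 0.94 ± 0.05. Of 9 other fibrinolysis genes tested 2 were lower and 4 higher, against the same shares of all genes. S100a10 and Anxa2, which together form a plasminogen receptor at the cell surface, rose by 1.08 ± 0.09 SE (adjusted p = 5.68e-05) and 0.83 ± 0.14 SE (adjusted p = 0.00148), and Serpini1, neuroserpin, rose by 1.67 ± 0.27 SE (adjusted p = 0.00133). Like Plaur and Plau, S100a10 (0.02 ± 0.03) and Anxa2 (-0.07 ± 0.05) had slopes on Alb near 0 that did not pass.

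Of 17 other soluble complement genes tested 11 were lower and 0 higher, against 21.6% and 19.4% of all genes. Cfhr2, a relative of factor H, fell (-4.68 ± 0.96 SE, adjusted p = 0.00441), as did vitronectin, Vtn (-4.08 ± 0.85 SE, adjusted p = 0.00463). The C1q chains, known to be made by macrophages, did not pass: C1qa, the first of them, stood at 589.9 ± 159 and 577 ± 66.1 CPM (SD, n = 5 each; -0.03 ± 0.19 SE, adjusted p = 0.911). Of 12 complement receptors and membrane regulators tested 5 were lower, against 21.6% of all genes. Among them were Cd59a (-2.72 ± 0.52 SE, adjusted p = 0.00305) and Cd55 (-2.30 ± 0.45 SE, adjusted p = 0.00320), which protect cells from complement, and Vsig4 (-1.54 ± 0.45 SE, adjusted p = 0.0218), the complement receptor of Kupffer cells. Of the 8 Kupffer cell markers, a list that holds Vsig4 itself, 4 were lower, against 21.6% of all genes. The summed levels of all 8 were 175.0 to 384.8 CPM in LFD and 30.29 to 120.0 CPM in HFD. The part of Kupffer cells in the values of the complement genes was not tested. In shYap against shCon 0 genes of these 4 lists passed in edgeR, against 0.0% of all genes. The smallest p were those of Cd93 (-0.57 ± 0.14 SE, adjusted p = 0.182), which encodes a receptor once linked to C1q, Anxa2 (0.58 ± 0.14 SE, adjusted p = 0.192) and S100a10 (0.47 ± 0.14 SE, adjusted p = 0.274).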

How the data were processed

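The deposited tables of 18 liver tumour libraries hold estimated counts for each gene, of which 59.7% and 61.8% were whole numbers. The submitters' processing notes name STAR 2.7.3a, Partek, DESeq2 and the builds GRCm38 and mm10 without saying what each was used for. Library strand and the annotation used for counting are not given in the sources used here, so reads of overlapping genes cannot be separated. Coordinates are those of GENCODE M21 (GRCm38), in which 97.4% and 97.1% of the tables' genes were found with the same symbol, start and strand.

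The 45 members and the gene lists were chosen with earlier results of these data known. Estimated counts were rounded, and each table was fitted alone in edgeR 4.0.16 under R 4.3.3, with genes kept by filterByExpr (16340 and 16571), TMM scaling, the robust quasi-likelihood test and Benjamini-Hochberg adjusted p under 0.05 over all genes kept. Log2 fold changes are HFD over LFD and shYap over shCon, and SE is the fold change over the square root of F. A second fit added log2 Alb CPM, giving the slope on Alb within groups and the difference at equal Alb. The main edgeR fit with its slope on Alb was tried, without the filter on low counts, on simulated data with known changes. The alternatives named below, the slopes within each group alone and the search for values that stood apart were not tried in this way. Counts cover counting error only.

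Given with every library were members that differed between groups without a slope on Alb, the members at the ends of the slope order of each role in the LFD and HFD table, and the 3 members with the smallest p in shYap against shCon, since 0 passed. Of the other lists, up to 3 genes with the smallest p were named. C1qa was named outside this rule, and C4a was named as the close copy of C4b. Some genes are not reported here by name. Other members' library values, and those of Mrc1, Plau, Fga, Fgb and Mbl2, were added after they were seen.

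Replicate numbers did not pair the samples: deviations of equal numbers correlated at -0.5 to 0.315 in the first table and at -0.052 to 0.182 in the second. Alternatives were DESeq2 1.42.0, limma 3.58.1 voom, other scaling factors and filters, the replicate block, each library left out, the closest HFD libraries (replicates 1 and 2, and 3 and 4, known as closest from an earlier analysis of these data) summed, and the mean of the hepatocyte list in place of Alb. The slope within each group alone was added after seeing the data.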

Additional observations from a re-analysis of the deposited data

Results flagged for a closer look

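In each group of 4 or 5 libraries, the highest and lowest level of every member was compared with its neighbours, in 180 groups in all, of which chance alone would set apart about 1 in 20. Cfd stood apart in LFD replicate 5 at 1.058 CPM, with the other LFD libraries at 0 to 0.275 CPM. Plau stood apart in shYap replicate 3 at 139.4 CPM, with the other shYap libraries at 50.1 to 54.7 CPM.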

How the results depend on the processing

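In HFD against LFD, 27 (HFD libraries summed) to 36 (DESeq2) members were lower against 35, and 31 to 36 with each library left out. DESeq2, limma voom and upper-quartile factors gave 2 higher members, Plau besides Plaur, and leaving out single libraries gave 1 to 2. The members that rose with Alb in the first table numbered 33 to 34 with each library left out. In the second table they numbered 0 to 34: 0 without shCon replicate 1 or 4, 19 without shCon replicate 2 or shYap replicate 2, and 0 within shYap alone. The cause was not tested. At equal Alb in HFD against LFD 3 members differed, 7 in DESeq2, 1 with the HFD libraries summed, 14 with the hepatocyte list as covariate, and 1 to 3 with each library left out. With the replicate number as a block, 28 members were lower and 1 higher in HFD, 24 rose with Alb in the first table and 0 in the second, and 0 differed at equal Alb. For the fits with a library left out, the replicate block or upper-quartile factors, the share of all genes called was not counted. Changes in these counts may therefore not be particular to the members. Of the LFD libraries 0 of 5, and of the shCon libraries 1 of 4, correlated best with their own number, so the numbers give no ground for pairing. Alb stayed lower in HFD (-5.25 to -3.95 with each library left out) and ran from 0.33 to 1.22 in shYap against shCon. In that comparison 0 members passed under every alternative run. Signs that turned there belong to members that did not pass: Proc was at -0.14 in limma voom and -0.0776 with the replicate block, and C6 at 0.15 and 0.13. With each library left out, log2 fold changes of shYap against shCon ran from -0.0161 to 0.90 for F12, -0.22 to 0.57 for Klkb1, -0.0195 to 0.66 for F9, -0.18 to 0.48 for Proc, -0.10 to 0.39 for Pros1, -0.14 to 0.50 for Plau, -0.0319 to 0.37 for C1s1, -0.13 to 0.0241 for C2, -0.0859 to 0.59 for Cfb, -0.40 to 0.77 for C6, -0.13 to 0.66 for C8a, -0.15 to 0.80 for C8b and -0.0565 to 0.56 for C9. In HFD against LFD they ran from -0.15 to 0.99 for F13a1, -0.0863 to 0.18 for Plat and -0.26 to 0.0532 for C1ra. Cfd lay at or near 0 in the first table, where it did not pass the filter on low counts.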
